A study of Mus musculus with 8 samples.

Results

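The nuclear genes of the mitochondrial respiratory chain were examined in mouse lung RNA, as all probe sets of a microarray table that carried exactly 1 gene symbol starting with Nduf, Sdha, Sdhb, Sdhc, Sdhd, Uqcr, Cox4, Cox5, Cox6, Cox7, Cox8 or Atp5. For each gene, the probe set with the highest mean over the 8 arrays was used. The rule found 92 genes among the 18820 genes tested, and it used no difference between groups. Of these, 80 encode subunits of complexes I to V, 11 are assembly factors and 1 is Cox7a2l, a factor that helps respiratory complexes associate with each other. Cox7c, Ndufa13 and Uqcrc2 were represented only by probe sets with several symbols, so these subunits were not analysed here.

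The respiratory chain is a series of protein complexes in the inner mitochondrial membrane. Complex I (NADH dehydrogenase, Nduf genes) and complex II (succinate dehydrogenase, Sdh genes) feed electrons to ubiquinone, complex III (cytochrome bc1, Uqcr genes) passes them to cytochrome c, complex IV (cytochrome c oxidase, Cox genes) hands them to oxygen, and complex V (ATP synthase, Atp5 genes) uses the resulting proton gradient to make ATP. Several complex IV subunits exist as a common isoform and as isoforms typical of certain tissues, such as striated muscle for Cox6a2, Cox7a1 and Cox8b, testis for Cox6b2, Cox7b2 and Cox8c, and lung and vascular smooth muscle for Cox4i2.

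Whole lung RNA came from FVB mice of 8 to 12 weeks. CCSP-p52 mice carried CCSP-tTS, (tet-O)7-FLAG-p52 and CCSP-rtTA, so that doxycycline (dox) induced FLAG-tagged p52, an NF-κB subunit, only in airway epithelial cells with an active CCSP promoter. Genotype-negative littermates served as WT. All mice, WT included, drank dox at 2 g/L with 2% sucrose for 1 week. In each genotype, 2 pools received dox alone and 2 pools also received intratracheal lipopolysaccharide (LPS) for 48 hours before sacrifice. Each of the 8 arrays held RNA pooled from 3 mice, sexes were evenly mixed in each group, and the transgenic mice came from more than 1 founder line.

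The 8 arrays had medians of 7.48 to 7.54 on the log2 scale. Correlations between the 2 pools of a group ranged from 0.981 to 0.996 over the 4 groups. Nfkb2, the gene that encodes p52, read 9.51 and 9.58 in WT, 10.20 and 10.33 in CCSP-p52, 10.83 and 10.56 in WT LPS, and 11.28 and 10.53 in the pools labelled CCSP-p52 LPS. The pool labelled CCSP-p52 LPS pool 2 was thus not above the WT LPS pools for the gene under induction. WT LPS pool 2 stood apart by transcripts of other tissues, with summed squamous epithelium markers (Krt5, Krt13, Krt4, Krt14, Krt15) at 13.74 on the log2 scale, against 8.88 to 9.11 in the other pools. The lung check list (Sftpc, Sftpb, Scgb1a1, Ager, Cldn18, Foxj1, Cldn5, Pecam1) was measured in full, and its summed level was 16.08 to 16.14 without LPS and 15.36 to 15.99 with LPS.

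Promoters of these genes were described first, and their relation to the LPS values was not tested. The RefSeq table (GRCm38.p6) held a window of 250 bases before and 50 bases after the start for 77 of the 92 genes, 82 windows in all. Cox4i2 and Ndufa4l2 were among the genes without a window. The 5 sequences that follow are the 250 bases before the start, shown for 2 isoform pairs of complex IV and for Cox5a, the member with the largest LPS increase, and CpG dinucleotides are in capitals. They lie at chr19:7217617-7217866 on the minus strand (Cox8a), chr7:140900447-140900696 on the minus strand (Cox8b), chr9:79759854-79760103 on the minus strand (Cox7a2), chr7:30183921-30184170 on the plus strand (Cox7a1) and chr9:57520982-57521231 on the plus strand (Cox5a).
Cox8a: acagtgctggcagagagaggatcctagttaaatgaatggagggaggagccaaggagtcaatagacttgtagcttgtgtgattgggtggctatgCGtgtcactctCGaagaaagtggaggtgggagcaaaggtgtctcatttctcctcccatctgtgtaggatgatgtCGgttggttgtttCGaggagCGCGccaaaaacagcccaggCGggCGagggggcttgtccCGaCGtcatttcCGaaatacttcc
Cox8b: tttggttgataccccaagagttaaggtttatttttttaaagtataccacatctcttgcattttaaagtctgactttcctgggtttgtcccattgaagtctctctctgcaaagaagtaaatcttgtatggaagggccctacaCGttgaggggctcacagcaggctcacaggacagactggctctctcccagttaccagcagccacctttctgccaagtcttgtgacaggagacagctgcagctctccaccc
Cox7a2: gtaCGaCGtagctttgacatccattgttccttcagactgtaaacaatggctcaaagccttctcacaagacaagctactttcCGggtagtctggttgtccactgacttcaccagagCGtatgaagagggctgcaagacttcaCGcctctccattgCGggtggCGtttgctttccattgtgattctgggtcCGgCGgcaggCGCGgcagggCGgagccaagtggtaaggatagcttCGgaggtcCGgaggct
Cox7a1: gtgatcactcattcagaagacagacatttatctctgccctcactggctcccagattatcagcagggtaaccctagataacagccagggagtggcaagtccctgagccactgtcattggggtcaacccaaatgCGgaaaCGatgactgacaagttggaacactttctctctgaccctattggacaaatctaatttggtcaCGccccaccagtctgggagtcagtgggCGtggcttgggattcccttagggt
Cox5a: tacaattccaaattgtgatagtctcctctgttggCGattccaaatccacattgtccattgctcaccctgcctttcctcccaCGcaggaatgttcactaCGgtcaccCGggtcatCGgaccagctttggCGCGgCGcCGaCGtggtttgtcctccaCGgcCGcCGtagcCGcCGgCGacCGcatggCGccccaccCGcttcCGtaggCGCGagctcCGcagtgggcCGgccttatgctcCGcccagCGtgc

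Cox8a had 11 CpG in these 250 bases and its muscle counterpart Cox8b had 1. Cox7a2 had 14 and its muscle counterpart Cox7a1 had 4. Cox5a had 26. The median over the 82 member windows was 14.5, against 6 over all 32851 windows of the table, with a median GC content of 57% against 52.4%. The 4 tissue isoforms with a window (Cox6b2, Cox7a1, Cox7b2, Cox8b) held 1 to 9 CpG, and the other 73 members held 4 to 39 with a median of 15. By the LPS test described below, the 17 higher genes with a window had a median of 15 CpG and the 57 that did not pass 14.5. The 3 lower genes with a window (Cox6b2, Cox7a1, Ndufaf7) had a median of 8.

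Short strings, with no mismatch allowed, were searched on both strands of the full 300-base windows, as a description and without a test. The palindromic consensus of NRF-1 was present in 8.54% of member windows (Atp5g2, Atp5k, Cox6a1, Ndufa11, Ndufaf4, Ndufaf5, Uqcrc1) and in 0.971% of all windows. The YY1 consensus was present in 4.88% (Ndufa9, Ndufs4, Ndufs6, Ndufs7) against 0.633%. NRF-1 and YY1 are transcription factors known for binding near genes of the respiratory chain. The ETS string CCGGAAGT, bound by GABP among others, was present in 6.1% (Atp5h, Cox8a, Ndufs3, Uqcr11, Uqcrh) against 3.89%. The strings TATAAA and CAGCTG, chosen after the windows had been seen, were present in 12.2% against 13.6% and in 7.32% against 16.3%. Cox8b held both of the last strings and none of the first 3. In the LPS test described next, which 20.7% of the members passed as higher, 0 of the 7 genes with the NRF-1 string were higher, 1 of the 5 with the ETS string (Ndufs3), 1 of the 4 with the YY1 string (Ndufs4), 2 of the 9 with TATAAA (Atp5md and Ndufb7) and 0 of the 6 with CAGCTG, and none of these genes was lower.

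LPS was compared with no LPS in an additive model of LPS and p52, with 4 pools on each side. Each complex held at least 1 subunit that rose by a modest amount, with only 1 each in complexes II and III. In contrast, 4 tissue isoforms of complex IV fell by more. At an adjusted p under 0.05 (limma, Benjamini-Hochberg over all probe sets tested), 19 of the 92 members were higher (20.7%, where 13.5% of all genes were higher) and 5 were lower (5.43%, where 20.8% of all genes were lower). The median logFC of the members was 0.08, with 58 positive (50.8% of all genes) and 34 negative, and that of all genes was 0.00. At the cut-off of 0.41 in logFC with an unadjusted p of 0.05 or less, 4 members were higher (9.89% of all genes) and 4 were lower (13.9% of all genes). The median SE of a member's LPS logFC was 0.08.

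**Figure D1:**
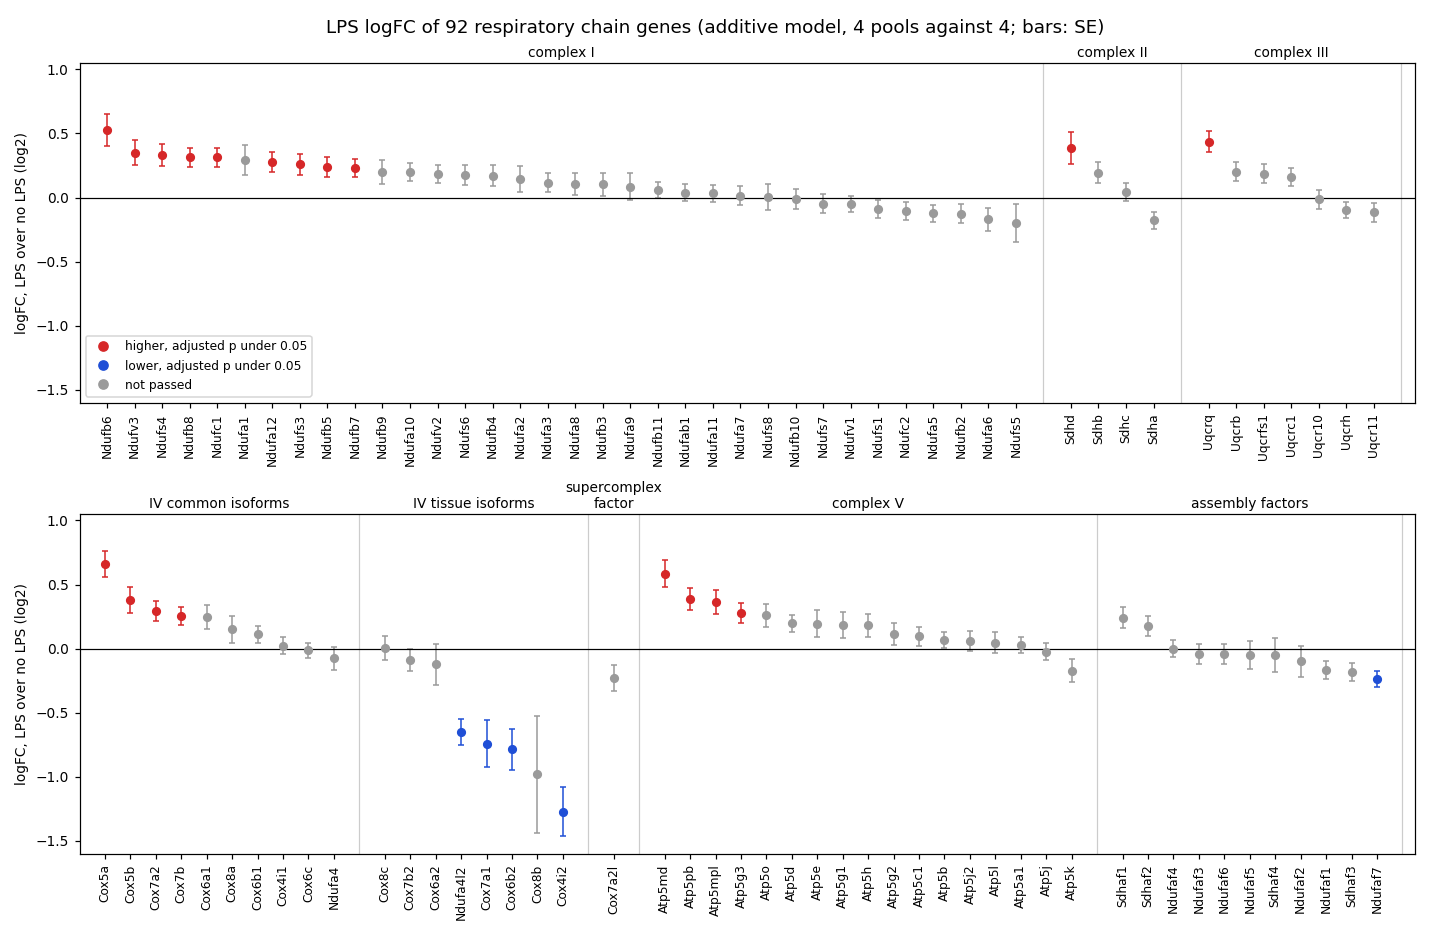
LPS logFC (log2, additive model, 4 pools with LPS against 4 without) of each of the 92 genes, with bars of 1 SE, grouped by complex and role and sorted within each group. Red and blue points passed an adjusted p under 0.05: most subunits lie between 0 and 0.66, while Cox4i2, Cox6b2, Cox7a1 and Ndufa4l2 lie between -1.27 and -0.65.

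The number that rose depended on the pools. It fell to 8 without WT pool 1, 9 without WT pool 2, 8 without CCSP-p52 pool 1, 10 without CCSP-p52 pool 2, 9 without WT LPS pool 1 and also 9 when CCSP-p52 LPS pool 1 was omitted. Omitting WT LPS pool 2 left 16, omitting the pool labelled CCSP-p52 LPS pool 2 gave 26, and omitting both of these gave 32. Across the arrays themselves, all 4 LPS pools lay above all 4 pools without LPS for 29 members (15.1% of all genes) and below them for 8 (21.8% of all genes). Members' median deviation from the WT mean was 0.17 in CCSP-p52 LPS pool 1, 0.08 and 0.04 in the WT LPS pools, and -0.01 in the pool labelled CCSP-p52 LPS pool 2.

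Complex IV held the largest member increase. Cox5a, a nuclear-encoded subunit close to the catalytic core, read 9.38 and 9.40 in WT without LPS, and 9.32 and 9.47 in CCSP-p52 without LPS. With LPS it read 10.12 and 9.96 in WT, and 10.28 and 9.86 in CCSP-p52, so that every LPS pool lay above every pool without LPS. Its logFC was 0.66 ± 0.10 (SE), a 1.58-fold increase (adjusted p = 0.002079, limma). Cox5b, its neighbour in the complex, was 11.16 to 11.28 without LPS and 11.37 to 11.75 with LPS (logFC 0.38 ± 0.10). Cox7a2 and Cox7b rose by 0.29 and 0.25. Cox5a passed the test with each pool left out in turn, whereas Cox5b and Cox7a2 each lost it in 5 of those 8 fits and Cox7b in 7.

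The other common complex IV isoforms did not pass, with logFC of 0.25 for Cox6a1, 0.15 for Cox8a, 0.11 for Cox6b1, 0.02 for Cox4i1, -0.01 for Cox6c and -0.08 for Ndufa4, which is now placed with complex IV. Over the 10 common isoforms the median logFC was 0.20, with 4 higher (40%, where 13.5% of all genes were higher) and 0 lower. For Cox4i1, the common isoform of the largest nuclear subunit, the 8 values ran from 10.43 to 10.56. Cox7a2l was -0.23 ± 0.10 and did not pass.

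Complex V was next. Atp5md, a small membrane subunit of the ATP synthase dimer, was 10.93 and 10.97 in WT, 11.03 and 10.73 in CCSP-p52, 11.48 and 11.38 in WT LPS and 11.74 and 11.40 in CCSP-p52 LPS. The groups with and without LPS did not overlap, and the logFC was 0.59 ± 0.11 (adjusted p = 0.004262, limma). Atp5md had 3 probe sets, and the 2 not used gave logFC of 0.49 and 0.50. Atp5pb, a subunit of the peripheral stalk, rose by 0.39 ± 0.09, Atp5mpl by 0.36 ± 0.10, and Atp5g3, which encodes the same mature membrane ring subunit as Atp5g1 and Atp5g2, by 0.28 ± 0.08, a call that was lost in 5 of the 8 fits with a pool left out. Atp5g1 and Atp5g2 had logFC of 0.18 and 0.11 and did not pass. The catalytic subunit Atp5b was at 0.07 and the central stalk subunit Atp5c1 at 0.10, neither past the test. Of the 17 complex V genes 4 were higher (23.5%, where 13.5% of all genes were higher) and 0 lower. The median was 0.18, and the lowest was Atp5k at -0.17.

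**Figure D2:**
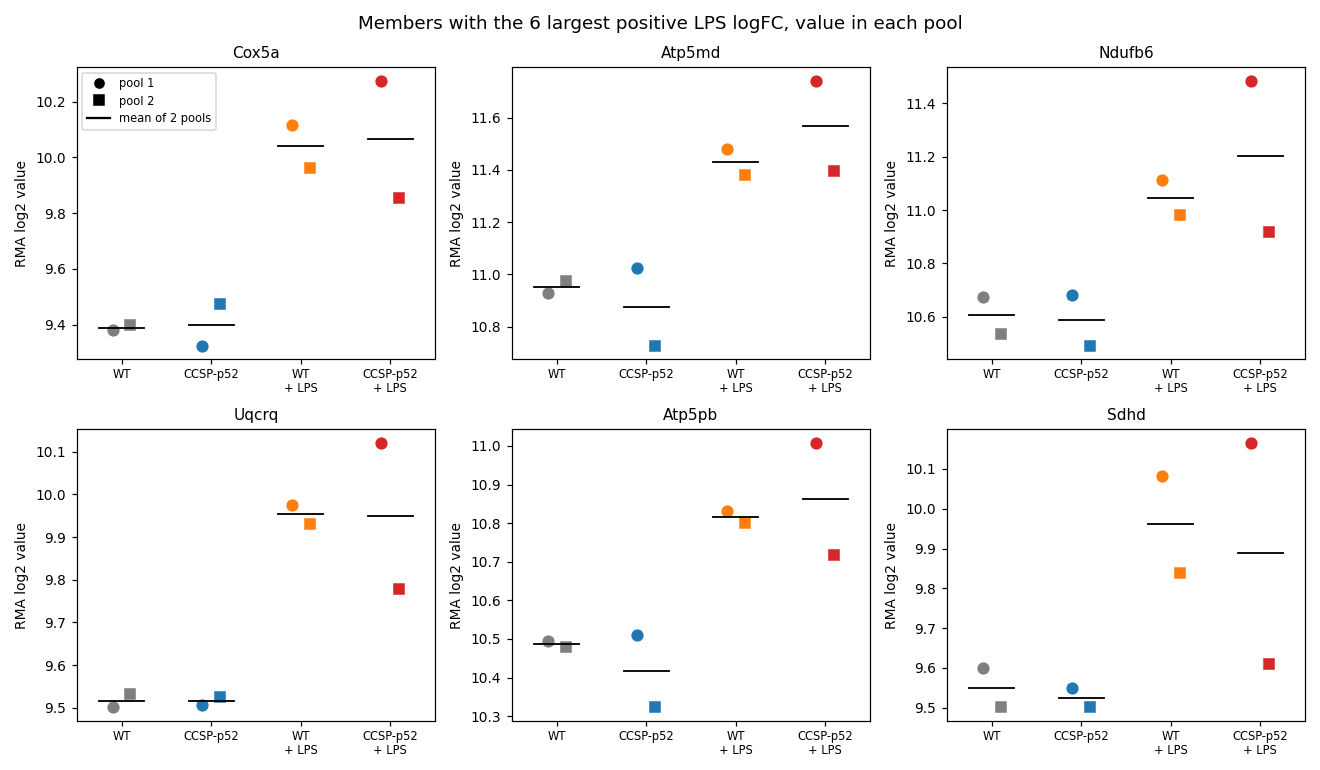
RMA log2 values in each pool for the 6 members with the largest positive LPS logFC among those that passed, by group (circle: pool 1, square: pool 2, line: mean of 2 pools). In each panel the 4 LPS pools lie above the 4 pools without LPS, and CCSP-p52 LPS pool 1 holds the highest value.

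In complex I, 9 of the 34 subunits measured rose (26.5%, where 13.5% of all genes were higher). Of these, 8 were accessory subunits, which make up 28 of the 34 (82.4%). The core subunits carry out electron transfer and the accessory subunits surround them. Ndufb6, an accessory subunit of the membrane arm, was 10.67 and 10.54 in WT, 10.68 and 10.49 in CCSP-p52, 11.11 and 10.98 in WT LPS and 11.48 and 10.92 in CCSP-p52 LPS (logFC 0.53 ± 0.13, 1.44-fold, adjusted p = 0.01414, limma). Its LPS and unexposed pools did not overlap. Ndufv3, Ndufs4, Ndufb8, Ndufc1, Ndufa12, Ndufb5 and Ndufb7 rose by 0.23 to 0.35. Whether each of these calls, or that of Atp5mpl, held with a pool left out was not followed gene by gene. In those fits the number of members that rose fell to as few as 8. Ndufb5 had another probe set, not used, at 0.09 that did not pass (adjusted p = 0.3497, limma). The 28 accessory subunits had a median of 0.13, with 8 higher and 0 lower.

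Of the 6 core subunits measured, Ndufs3 passed, with a logFC of 0.26 ± 0.08 that missed the test in 7 of 8 fits with a pool left out and with all probe sets (adjusted p = 0.06417, limma). Ndufv2 was at 0.18, Ndufs8 at 0.00, Ndufs7 and Ndufv1 at -0.05 and Ndufs1, which carries several iron-sulfur clusters, at -0.09, none past the test, and Ndufs7 and Ndufv1 were at 0.01 when each array was centred on its median. The core median was -0.02. For Ndufs1 the pools without LPS read 9.32 to 9.48 and those with LPS 9.27 to 9.38, so the groups overlapped. No complex I subunit was lower at an adjusted p under 0.05, and the lowest value was that of Ndufs5 at -0.20.

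Complexes II and III each had 1 member that rose (25% and 14.3% of their subunits, where 13.5% of all genes were higher). In complex II, Sdhd, a membrane anchor, was 9.50 to 9.60 without LPS, 10.08 and 9.84 in WT LPS and 10.17 and 9.61 in CCSP-p52 LPS (logFC 0.39 ± 0.12, adjusted p = 0.04131, limma). The lowest LPS pool was just above the highest pool without LPS, and the call was lost in 7 of the 8 fits with a pool left out and with all probe sets (adjusted p = 0.0624, limma). Sdha, the flavoprotein that oxidises succinate, was 11.16 to 11.26 without LPS and 10.98 to 11.10 with LPS (logFC -0.18 ± 0.06), with no overlap, and did not pass (adjusted p = 0.06856, limma). Sdhb and Sdhc were at 0.19 and 0.04, neither past the test.

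In complex III, Uqcrq, a small membrane subunit, read 9.50 to 9.53 in the 4 pools without LPS. It read 9.98 and 9.93 in WT LPS and 10.12 and 9.78 in CCSP-p52 LPS, a logFC of 0.44 ± 0.08 (1.35-fold, adjusted p = 0.005355, limma). The other 6 complex III subunits did not pass, from Uqcrb at 0.20 to Uqcr11 at -0.12, with the Rieske iron-sulfur protein Uqcrfs1 at 0.19 and the core protein Uqcrc1 at 0.16. The median logFC was 0.12 in complex II and 0.16 in complex III. Uqcrb had 3 probe sets, of which 1 that was not used passed (logFC 0.29).

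The 11 assembly factors, which build the complexes without staying in them, had a median of -0.05. Of these, 0 were higher and 1 lower (9.09%, where 20.8% of all genes were lower). Ndufaf7, a methyltransferase that acts on a complex I subunit, was 8.06 to 8.16 without LPS and 7.79 to 7.94 with LPS (logFC -0.24 ± 0.07, adjusted p = 0.02473, limma), and the groups did not overlap. That call was lost in 5 of the 8 fits with a pool left out, and also when each array was centred on its median (-0.18, adjusted p = 0.074, limma) or with quantile normalization (-0.19, adjusted p = 0.05866, limma). The 7 complex I assembly factors had LPS logFC from -0.24 to 0.00, where 49.2% of all genes were negative, and with median centring 4 of the 7 (Ndufaf3, Ndufaf4, Ndufaf5, Ndufaf6) were positive. Sdhaf1, which helps insert iron-sulfur clusters into complex II, was at 0.24 just outside the threshold (adjusted p = 0.05012, limma). Its other probe set, not used, was also at 0.24 and passed (adjusted p = 0.04307, limma).

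Cox4i2, Cox6b2, Cox7a1 and Ndufa4l2 fell. Cox4i2, the lung isoform of the largest nuclear complex IV subunit, was 10.56 and 10.49 in WT and 10.47 and 10.49 in CCSP-p52. With LPS it was 9.13 and 9.11 in WT and 8.84 and 9.84 in CCSP-p52, below all pools without LPS. Its logFC was -1.27 ± 0.19, a 2.42-fold decrease (adjusted p = 0.001971, limma). The pool labelled CCSP-p52 LPS pool 2 held the smallest decrease.

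Ndufa4l2, a relative of Ndufa4 that is induced by hypoxia, was 8.31 to 8.44 without LPS, 7.46 and 7.83 in WT LPS and 7.71 and 7.90 in CCSP-p52 LPS (logFC -0.65 ± 0.10, 1.57-fold lower, adjusted p = 0.002188, limma). Cox6b2 was 8.74 to 8.87 without LPS, 7.98 and 7.59 in WT LPS and 7.93 and 8.58 in CCSP-p52 LPS (logFC -0.79 ± 0.16, 1.72-fold lower, adjusted p = 0.006225, limma). The groups did not overlap for either gene. Both calls, and that of Cox4i2, held with each pool left out in turn.

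Cox7a1, the muscle isoform of a small complex IV subunit, was 8.69 and 9.14 in WT, 8.40 and 8.72 in CCSP-p52, 7.71 and 8.52 in WT LPS and 7.92 and 7.83 in CCSP-p52 LPS. WT LPS pool 2 overlapped the pools without LPS and the other LPS pools did not. The logFC was -0.74 ± 0.18 (adjusted p = 0.01561, limma), and the call was lost without WT pool 2 (-0.64, adjusted p = 0.05248) or without CCSP-p52 pool 2 (-0.69, adjusted p = 0.05126). Cox8b, also a muscle isoform, was 9.08, 9.28, 8.85 and 8.84 without LPS, 7.08 and 9.57 in WT LPS and 7.44 and 8.03 in CCSP-p52 LPS. With all pools its logFC of -0.98 ± 0.46 did not pass (adjusted p = 0.1377, limma), and without WT LPS pool 2 it was -1.50 and passed (adjusted p = 0.004923). Cox6a2 was highest in WT LPS pool 2 as well, at 9.21 against 8.43 in WT LPS pool 1, and its logFC of -0.12 ± 0.16 did not pass. The testis isoforms Cox7b2 and Cox8c were at -0.09 and 0.01, neither past the test, and Cox7b2 had the lowest mean log2 value of all members (4.62).

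The 8 tissue isoforms were each set against a common isoform within each array (Cox8b and Cox8c both against Cox8a), as the difference of their log2 values, which cancels a shift that an array imposes on both. The difference is read only for its change, since the levels of separate probe sets are not comparable. Cox4i2 minus Cox4i1 was -0.05 to 0.12 without LPS and -1.72 to -0.58 with LPS, a change of -1.30 (exact permutation test over 70 regroupings, two-sided p = 0.02857, the smallest possible with 4 against 4, 0.04571 after adjustment over 8 pairs). The change was -1.03 for Cox7a1 minus Cox7a2, -0.90 for Cox6b2 minus Cox6b1, -0.57 for Ndufa4l2 minus Ndufa4 and -0.34 for Cox7b2 minus Cox7b, each with the same exact p and no overlap of groups. In the last of these pairs Cox7b rose and Cox7b2 itself did not pass. The adjusted value of 0.04571 depends on all 5 pairs being tied at the smallest possible p. The tests were chosen after the data were seen. Regrouping only within pool numbers, since same-numbered pools deviated together, gave 0.05556 for each of these 5 pairs, the smallest exact p that the 36 regroupings allow, so none could pass 0.05 in that form. Cox8b minus Cox8a changed by -1.13 (exact p = 0.1714, adjusted 0.2286) and Cox6a2 minus Cox6a1 by -0.37 (exact p = 0.2, adjusted 0.2286), with WT LPS pool 2 above all the unexposed pools in both. Without that pool the changes were -1.69 and -0.61. Cox8c minus Cox8a changed by -0.14 with overlap (exact p = 0.5714). Over the 8 tissue isoforms the median LPS logFC was -0.70, with 0 higher and 4 lower (50%, where 20.8% of all genes were lower). Over the other 72 subunits it was 0.15, with 19 higher (26.4%, where 13.5% of all genes were higher) and 0 lower.

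**Figure D3:**
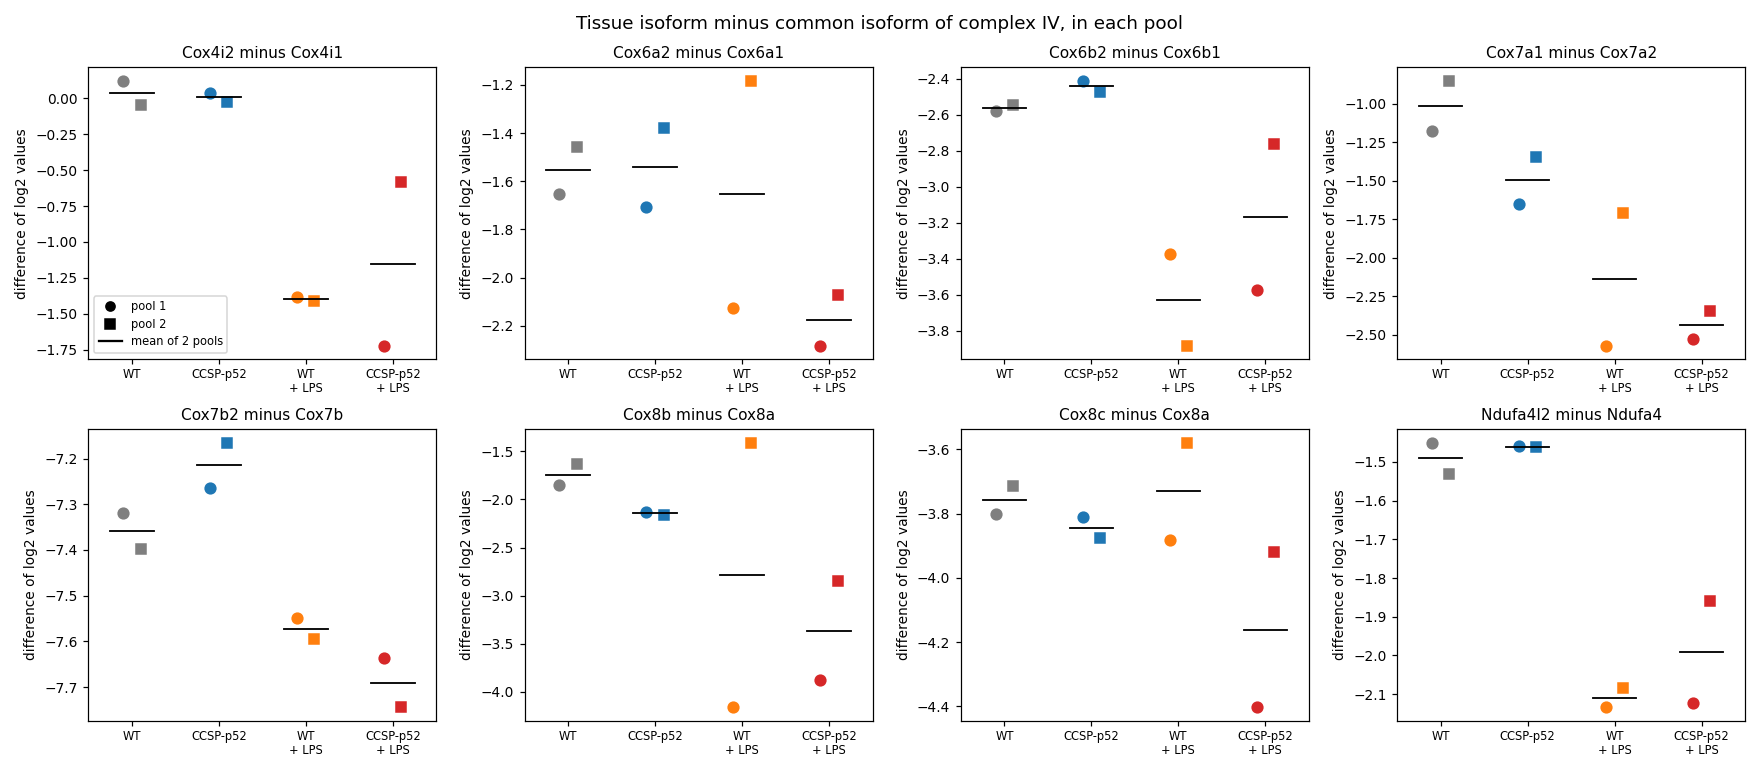
Tissue isoform minus common isoform (difference of RMA log2 values) in each pool, for 8 pairs of complex IV subunits (circle: pool 1, square: pool 2, line: mean of 2 pools; vertical scales differ). The LPS pools lie below the pools without LPS in 5 pairs, and WT LPS pool 2 lies above them for Cox6a2, Cox8b and Cox8c.

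Marker lists of other cell types were set beside these isoforms, and they did not all move the same way. Of 9 cardiac and pulmonary vein muscle markers, 6 fell with LPS (Myl7, Myl4, Actc1, Tnni3, Ryr2, Myh7) and 0 rose. This was 66.7% lower, where 20.8% of all genes were lower. Their summed level was 13.63 to 14.36 without LPS on the log2 scale. With LPS it was 13.44 in WT LPS pool 2 and 11.61 to 12.87 in the other LPS pools. Of 12 skeletal muscle markers none passed, and their summed level was 13.85 in WT LPS pool 2 and 10.74 to 11.38 in the other 7 pools. Acta1, skeletal actin, and Ckm, muscle creatine kinase, read 11.97 and 11.95 in that pool and at most 8.73 and 9.99 elsewhere. Cox8b and Cox6a2 had their highest values in the same pool. Fat markers, a source of Cox7a1 and Cox8b in brown fat, had 0 of 7 past the test. Their summed level was 9.48 to 10.27 without LPS. With LPS it was 10.74 in WT LPS pool 2, the highest of all pools, and 9.45 to 9.69 in the other LPS pools. The part of these cells in the isoform changes was not tested.

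Of 8 mural cell markers (pericytes and vascular smooth muscle), 6 fell with LPS (75%, where 20.8% of all genes were lower) and 0 rose. Those that fell were Pdgfrb, Cspg4, Notch3, Higd1b, Abcc9 and Postn. Kcnj8 (0.11) and Rgs5 (-0.20) did not pass, and Rgs5 read 8.03 in WT LPS pool 2, above all pools without LPS. The summed level of the list was 13.63 to 13.68 without LPS and 12.35 to 12.89 with LPS. Pdgfrb and Notch3 had logFC of -1.01 and -1.34, beside -1.27 for Cox4i2 and -0.65 for Ndufa4l2. The pool labelled CCSP-p52 LPS pool 2 had the highest LPS values of Notch3 (9.65), of the summed list and of Cox4i2 and Ndufa4l2. The same pool was also highest among the LPS pools for other lung cell lists. Of the 8 genes of the lung check list, 4 fell with LPS (Sftpb, Ager, Cldn18, Pecam1, 50% of the list) and 0 rose, with a median logFC of -0.47. Its summed level was 15.99 in that pool and 15.36 to 15.67 in the other LPS pools. Of 8 alveolar type II markers, 3 fell (Sftpb, Abca3, Etv5) and 1 rose (Sftpd), and their summed level was 15.90 in that pool and 15.33 to 15.62 in the other LPS pools, against 15.67 to 15.87 without LPS. In bulk lung RNA, fewer cells of a type and less RNA per cell cannot be told apart, and the part of mural or other lung cells in these values was not tested.

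**Figure D4:**
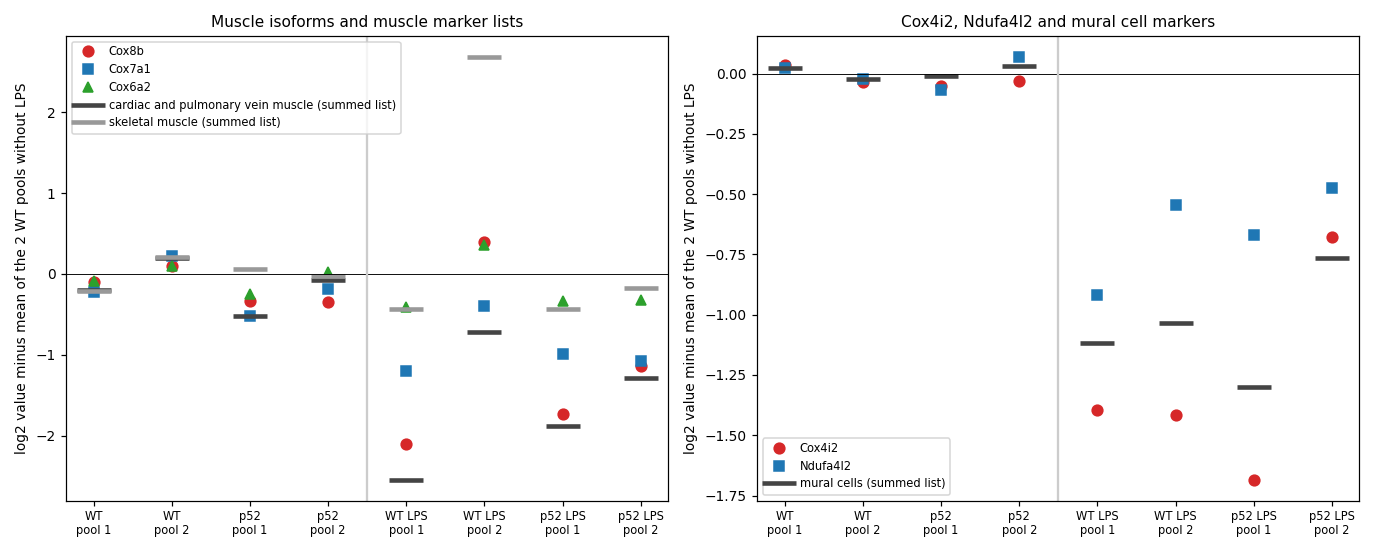
Log2 values in each of the 8 pools minus the mean of the 2 WT pools without LPS, for the muscle isoforms Cox8b, Cox7a1 and Cox6a2 beside summed muscle marker lists (left) and for Cox4i2 and Ndufa4l2 beside the summed mural list (right). The skeletal list stands out in WT LPS pool 2, where Cox8b and Cox6a2 are also highest. Among the LPS pools the cardiac list is highest there too. The mural list, Cox4i2 and Ndufa4l2 are lower in all 4 LPS pools.

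Other genes of energy metabolism gave a scale for the subunit changes. Of 17 glycolysis genes measured, 16 rose (94.1%, where 13.5% of all genes were higher) and 1 fell, with a median logFC of 1.12. Slc2a1, the main basal glucose transporter, rose by 1.71 ± 0.21 and Ldha, which makes lactate, by 0.80 ± 0.14. Pfkm, the muscle phosphofructokinase, fell (-0.58 ± 0.17), and it read 9.34 in WT LPS pool 2 against 8.41 to 8.52 in the other LPS pools. Neutrophil markers, of which 8 of 8 rose, had summed levels of 10.29 to 10.86 without LPS and 13.85 to 14.48 with LPS, and proliferation markers, of which 5 of 5 rose, had 9.55 to 10.45 and 10.98 to 11.71. Their part in the subunit and glycolysis values was not tested.

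Of 14 citric acid cycle genes measured, 0 were higher and 3 were lower (21.4%, close to the 20.8% of all genes), namely Suclg2 (-0.40), Ogdh (-0.31) and Fh1 (-0.22), with a median of -0.04. Among 29 chain genes outside the symbol rule, 3 rose (10.3%, where 13.5% of all genes were higher). They were cytochrome c (Cycs, 0.59 ± 0.09), Cyc1 of complex III (0.28 ± 0.08) and the assembly factor Cox18 (0.52 ± 0.09). In that list 8 fell (27.6%, where 20.8% of all genes were lower), including the proton-driven transhydrogenase Nnt (-0.56 ± 0.06), the complex IV assembly factors Cox14, Cox16, Cox20 and Surf1 (-0.26 to -0.51) and the ubiquinone synthesis genes Coq2 and Pdss2 (-0.26 and -0.25). Its median was 0.03. The 13 subunits encoded in mitochondrial DNA had no probe set with 1 symbol.

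Of 15 regulators of mitochondrial biogenesis, 1 rose (6.67%, against 13.5% of all genes) and 5 fell (33.3%, against 20.8%), with a median of -0.13. Ppargc1a, the coactivator that drives respiratory gene expression in muscle and brown fat, was 8.32 to 8.53 without LPS and 7.05 to 8.03 with LPS (logFC -0.79 ± 0.18, adjusted p = 0.01085, limma). Its relative Ppargc1b rose by 0.45 ± 0.10. Esrrg, a nuclear receptor partner of these coactivators, and Twnk, Polg and Polg2, which replicate mitochondrial DNA, fell by 0.20 to 0.37 on the log2 scale. Nrf1, Gabpa and Yy1, whose binding strings were counted in the promoters, had logFC of -0.13, -0.21 and -0.07 and did not pass.

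Differences between CCSP-p52 and WT were small next to those with LPS, and their values follow for each LPS state. In the additive model none of the 92 passed an adjusted p under 0.05 (limma, where 0.00531% of all genes were higher and 0% lower) and none reached the cut-off of 0.41 (0.228% of all genes higher and 0.0425% lower), while 1 had an unadjusted p under 0.05 (2.31% of all genes). Without LPS none reached the cut-off either (0.569% of all genes higher and 0.165% lower), and 0 had an unadjusted p under 0.05 (1.73% of all genes). There, 65 of 92 logFC were negative (51.2% of all genes), with a median of -0.03 and a median SE of 0.11, so that single differences lay within the spread between pools. The 2 largest negative values belonged to Cox7a1 (-0.36 ± 0.28) and Cox8b (-0.34 ± 0.70). With 2 pools on each side, an exact permutation test of a single gene cannot go below 0.33.

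With LPS, 59 of 92 p52 logFC were positive (50.9% of all genes), with a median of 0.04. No member passed the adjusted test in limma, 4 had an unadjusted p under 0.05 (6.87% of all genes), 0 were higher at the cut-off (0.972% of all genes), and Cox8c alone was lower (1.09% of all genes). Cox8c, the testis isoform of Cox8, was 7.36 and 7.40 in WT LPS and 6.92 and 6.97 in CCSP-p52 LPS, against 7.12 to 7.20 without LPS (logFC -0.44 ± 0.09, unadjusted p = 0.001592, adjusted p = 0.6891, limma). These values lie below the median probe set mean of 8.14. Cox8b had a larger difference, -0.58 ± 0.70, that did not pass, with WT LPS pool 2 at 9.57. Cox6b2 had 0.47 ± 0.22 and did not pass.

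**Figure D5:**
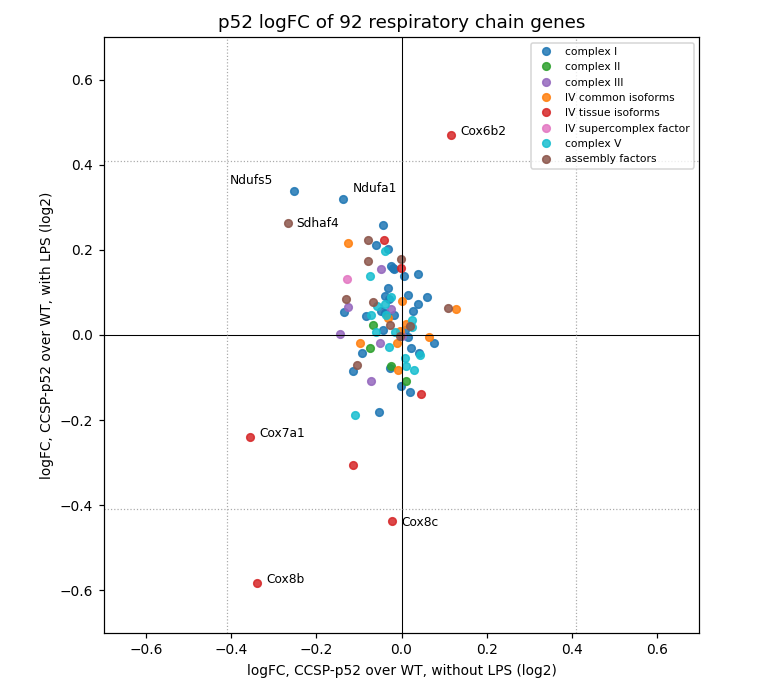
logFC of CCSP-p52 over WT with LPS (vertical) against without LPS (horizontal) for each of the 92 genes, 2 pools against 2 on each axis, coloured by complex and role; dotted lines mark 0.41 either way. The axes use different pools, most points lie close to zero on both, and the tissue isoforms Cox8b, Cox7a1, Cox6b2 and Cox8c lie farther out.

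The p52 by LPS interaction asks whether the p52 difference changed with LPS. No member passed the adjusted test in limma, and 5 had an unadjusted p under 0.05 (5.02% of all genes). At the cut-off, 3 members were higher (1.24% of all genes) and 1 lower (2.38% of all genes). Ndufs5, an accessory subunit of complex I, was 7.85 and 8.09 in WT, 7.78 and 7.66 in CCSP-p52, 7.69 and 7.27 in WT LPS and 7.85 and 7.79 in CCSP-p52 LPS (interaction 0.59 ± 0.22, unadjusted p = 0.03247). Sdhaf4, a complex II assembly factor, had 0.53 ± 0.20 (unadjusted p = 0.03512) and Ndufa1, an accessory subunit needed for complex I assembly, 0.46 ± 0.18 (unadjusted p = 0.04066), and Cox8c had -0.42 ± 0.12 (unadjusted p = 0.01214). All 4 had an adjusted p of 0.9126 in limma. With the replicate number as a block, Ndufa1 missed the cut-off (unadjusted p = 0.05041, limma). Sdhaf4 missed it with the mean of its probe sets, at 0.14 (unadjusted p = 0.4807, limma). Each of the 4 was also lost in 4 or 5 of the 8 fits with a pool left out, and in all 4 genes these included the omission of WT LPS pool 2 and, separately, that of CCSP-p52 LPS pool 1.

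Within each genotype the LPS comparison used 2 pools against 2. In WT, 2 members were higher (Cox5a and Uqcrq, where 8.07% of all genes were higher) and 4 were lower (Cox4i2, Cox6b2, Ndufa4l2 and Ndufaf7, where 14.0% were lower), and with the replicate number as a block 4 were higher. In CCSP-p52, 4 were higher (Atp5md, Cox5a, Ndufs4 and Sdhaf1, where 4.31% of all genes were higher) and 0 lower (5.03% lower), and with the block 8 were higher and 2 lower. Without the pool labelled CCSP-p52 LPS pool 2, 22 members were higher in CCSP-p52 and 3 lower. The LPS logFC of Cox5a was 0.65 ± 0.15 in WT and 0.67 ± 0.15 in CCSP-p52, and that of Uqcrq was 0.44 ± 0.12 and 0.43 ± 0.12. Cox4i2 fell by 1.40 on the log2 scale in WT (adjusted p = 0.01851, limma) and had -1.14 ± 0.28 in CCSP-p52 (adjusted p = 0.05237, limma), an interaction of 0.26 that did not pass. Ndufs4, an accessory subunit at the base of the peripheral arm, had 0.18 ± 0.10 in WT and 0.48 ± 0.10 in CCSP-p52, and its interaction did not pass either (unadjusted p = 0.06789).

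Complexes I, II, III and V had positive LPS medians in both genotypes. In WT the medians were 0.08 for complex I, 0.14 for complex II, 0.11 for complex III, 0.15 for complex V and 0.15 for the common isoforms of complex IV. In CCSP-p52 they were 0.14, 0.10, 0.17, 0.18 and 0.19 in the same order, and complex II had 2 positive and 2 negative subunits. The 2 CCSP-p52 LPS pools differed. Median deviations from the WT mean were 0.22, 0.19, 0.20 and 0.27 for complexes I, II, III and V in CCSP-p52 LPS pool 1. In the pool labelled CCSP-p52 LPS pool 2 they were 0.03, -0.05, 0.03 and 0.003. The tissue isoforms had medians of -0.76 in WT and -0.59 in CCSP-p52. All genes tested had medians of 0.01 and -0.03.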

How the data were processed

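Processed values of 8 Affymetrix Mouse Gene ST arrays were used, 2 pools in each of 4 groups. The authors normalized raw intensities by RMA and deposited log2 values, 1 per probe set. Of 35556 probe sets, 21218 had 1 symbol in the platform annotation and were tested, 1881 had several and 12457 none. Groups and pool numbers were taken from the labels. Intensity, background and detection calls were not analysed here, and precision is bounded by how few arrays there are. The labels do not tell whether the pools of a group shared cages or days, so p-values measure the spread between these pools only.

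limma 3.58.1 (R 4.3.3) was fitted to all probe sets with 1 symbol over all 8 arrays, with an additive model of p52 and LPS, as in the methods (which used limma 3.20.8), and with a model of 4 group means for contrasts. Calls were made at a Benjamini-Hochberg adjusted p under 0.05 and at a logFC of 0.41 with an unadjusted p of 0.05 or less. No filter on low values was applied, and 77 of the 92 members lay above the median probe set mean of 8.14. Of the members, 25 had more than 1 probe set, and for 3 of these the sign of the LPS logFC differed and for 3 the call. Several of these genes have near-identical copies in the genome, so a probe set may read more than 1 locus. Isoform differences were compared by two-sided exact permutation tests, over all arrays and within pool number, which were chosen after the data were seen. The code was tested on simulated data.

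Pools with the same number deviated together in all 6 pairs of conditions (correlations of deviations from group means 0.14 to 0.347), which is why a replicate block was fitted as an alternative and pool numbers were treated as pairs. Other alternatives were all probe sets, a low-value filter, array weights, trended and robust moderation, median centring, quantile normalization, the mean of a gene's probe sets, an averaged effect and each array left out. Leaving out both LPS pools numbered 2 was added after the data were seen.

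Named members were the 6 largest passing LPS logFC each way, members at the cut-off in a p52 comparison, fixed isoform families, fixed core subunits, and the highest and lowest of each complex. Other members, and genes of the pathway and marker lists, are named as counts require. The members and lists were chosen with earlier results of these data known. Promoters, gene IDs (92 of 92 members matched) and coordinates came from RefSeq (GRCm38.p6), with no overlap of strings removed. No member or list was tested as a set.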

Additional observations from a re-analysis of the deposited data

How the results depend on the processing

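Of 48 named values, 41 kept their sign under every alternative run, and of 21 called values 8 were never lost (Cox5a, Atp5md, Atp5pb, Uqcrq, Ndufb6, Cox4i2, Cox6b2, Ndufa4l2 with LPS). Precision is limited by 2 pools in a group, and depth or signal over background cannot be read from these values. The causes of the changes that follow were not tested, except that leaving out a pool removes samples and the low-value filter removes genes.

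With the low-value filter, the median LPS logFC was 0.15 over the members left and 0.17 in complex I, LPS in WT gave 2 lower, LPS in CCSP-p52 9 higher and 1 lower, p52 with LPS 0 lower, and the interaction 1 higher and 0 lower. Cox8c is below that filter. With all probe sets, LPS in WT gave 1 higher and LPS in CCSP-p52 0 higher. Array weights gave 11 higher for LPS in WT, 1 higher and 1 lower for LPS in CCSP-p52 and 1 higher for the interaction. With the replicate block, which pairs pools by number, LPS in WT gave 4 higher and LPS in CCSP-p52 8 higher and 2 lower, and the named values lost 1 call, that of Ndufa1 for the interaction. Median centring, which moved all LPS logFC by 0.06, gave medians of 0.216 for complex III and 0.0546 for complex IV, 0 higher for the interaction, and the opposite sign for Ndufs7 (0.0103) and Ndufv1 (0.0098). Quantile normalization gave 0 lower for p52 with LPS and 1 higher and 0 lower for the interaction.

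Without both LPS pools numbered 2, LPS in the additive model gave 32 higher, LPS in WT 12 higher and 7 lower, LPS in CCSP-p52 29 higher and 4 lower, and the interaction 5 higher. The medians were 0.21 in complex I and 0.32 over the common isoforms of complex IV, and Cox7b2 (6e-04) and Cox8c (-0.0161) changed sign.

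With each pool left out in turn, LPS in the additive model gave 8 to 26 higher and 3 to 6 lower, LPS in WT 0 to 10 higher and 0 to 4 lower, and LPS in CCSP-p52 0 to 22 higher and 0 to 3 lower. The p52 comparisons gave 0 to 2 lower in the additive model, 0 to 1 lower without LPS, and 0 to 2 higher and 1 to 4 lower with LPS, and the interaction gave 0 to 5 higher and 0 to 3 lower. The LPS medians ran from 0.0604 to 0.171 in complex I, 0.08 to 0.17 in complex II, 0.12 to 0.19 in complex III, -0.03 to 0.01 in complex IV, 0.10 to 0.21 in complex V, 0.13 to 0.25 over the common isoforms of complex IV, -0.76 to -0.53 over its tissue isoforms and 0.04 to 0.13 over all members. Signs changed for Cox4i1 (-0.002 to 0.0516), Cox6a2 (-0.29 to 0.0142), Cox8c with LPS (-0.0488 to 0.059) and Ndufs8 (-0.0751 to 0.0659), none of them past the test.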
